A study of Mus musculus with 19 samples.

Results

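The chemokine receptor genes Cxcr4, Ccr9, Ccr4 and Ccr7 were followed across genotypes, stages and cell classes of the mouse thymus. They were taken by name, as 4 of the 28692 genes in the RNA tables. In the GENCODE annotation of GRCm38, Cxcr4 lies on chr1:128588199-128592293 and Ccr7 on chr11:99144196-99155077, both on the minus strand and overlapping no other annotated gene. Ccr4 lies on the minus strand at chr9:114490316-114504916, and Ccr9 on the plus strand at chr9:123678439-123784330. The annotated span of Ccr9 overlaps 6 other genes, among them Lztfl1 and Slc6a20a on the opposite strand. The sources used here do not give the strand setting of the counting, so reads of Ccr9 and of these genes may not be fully separated.

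RNA and 111 surface proteins were read from the same single thymocytes by CITE-seq, in which antibodies carry DNA tags that are sequenced beside the RNA. Thymocytes came from 17 female mice of 4 to 8 weeks on 19 lanes, and each mouse is 1 replicate. CD4-fated mice select T cells on MHC class II and were of 3 genotypes with 2 mice each: AND and OT-II, which carry transgenic T cell receptors (TCRs), and MHCI-/-, which lack B2m and keep a diverse repertoire. CD8-fated mice select on MHC class I and were likewise of 3 genotypes with 2 mice each: F5, whose TCR is driven by a CD2 promoter, OT-I, also TCR transgenic, and MHCII-/-, which lack H2-Ab1. AND and F5 mice were also Rag1-/-, so they rearrange no receptor genes of their own, and thymocytes of the other transgenic mice may still do so. The remaining 5 mice were wild-type C57BL/6, 3 of them sorted for CD5+TCRB+ cells (WT replicates 1 to 3) as were the MHCI-/- and MHCII-/- thymocytes, and 2 of them unsorted (WT replicates 4 and 5). The last of 3 experiments held both OT genotypes and the unsorted wild-type mice, so among fated mice the OT family and that experiment cannot be told apart. AND and F5 mice spanned the other 2 experiments, with replicate 1 of both in the first and replicate 2 of both in the next, and the MHC-deficient mice all came from the latter. Where mice are listed for wild type, the order is replicate 1 to 5.

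Chemokine receptors are G protein-coupled receptors that steer cells along gradients of chemokines. Immature thymocytes with both coreceptors (double positive, DP) reside in the cortex, and after positive selection they move to the medulla as CD4 or CD8 T cells. CXCR4 binds CXCL12 and is known for cortical retention. CCR9 binds CCL25, CCR4 binds CCL17 and CCL22, and CCR7 binds CCL19 and CCL21 and is known for guiding selected cells into the medulla.

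The lanes held 85389 barcodes, with median depths of 1496 to 7173 RNA unique molecular identifiers (UMIs) per cell, and 69256 cells were kept. Any pair of lanes shared at most 35 barcodes, or 1.27% of the smaller lane. B2m, which MHCI-/- mice lack, stood at 53.2 and 52.3 counts in 1e6 RNA UMIs (CPM) in the gated cells of those mice and at 404 to 1556 CPM elsewhere. The T cell gene Cd3e was present in every gate of every mouse at 376 CPM or more, while the B cell gene Cd79a reached 6.59 CPM and the myeloid gene Lyz2 31.7 CPM at most. The erythrocyte gene Hbb-bs had medians of 0 to 1.82 CPM but reached 1290 CPM in the CD4 SM gate of 1 mouse, and its part in the results was not tested. H2-Ab1, which MHCII-/- mice lack, had gate medians of 0 to 4.95 CPM over all mice and was too low to check those mice. WT replicate 5, OT-I replicate 2 and OT-II replicate 2 stood apart from the other libraries, with Malat1 at 4.71e+04 to 8.77e+04 CPM against at most 3.83e+04 CPM and with Gm26526 at 124 to 139 CPM against at most 33.5 CPM. These 3 libraries also had the highest Ccr9 levels of their groups in most gates, so calls were repeated without them.

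The 250 bases before the RefSeq transcription start of Cxcr4, Ccr9 and Ccr4 are printed because levels of these genes are followed below through the same stages. Ccr7 had no entry among the RefSeq promoters used. The windows of Ccr9 and Ccr4 lie inside the GENCODE spans given above, which begin further upstream, so other starts of these 2 genes are not covered. Capitals mark matches on either strand to CACCC, the core of KLF sites, and to CANNTG, the E box of basic helix-loop-helix factors.
Cxcr4 (chr1:128592300-128592549, GRCm38.p6, minus strand): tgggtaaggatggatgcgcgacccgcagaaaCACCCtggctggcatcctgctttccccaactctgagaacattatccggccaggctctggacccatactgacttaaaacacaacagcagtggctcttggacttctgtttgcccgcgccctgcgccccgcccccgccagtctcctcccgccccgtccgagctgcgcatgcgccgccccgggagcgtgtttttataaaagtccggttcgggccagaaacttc
Ccr9 (chr9:123766961-123767210, GRCm38.p6, plus strand): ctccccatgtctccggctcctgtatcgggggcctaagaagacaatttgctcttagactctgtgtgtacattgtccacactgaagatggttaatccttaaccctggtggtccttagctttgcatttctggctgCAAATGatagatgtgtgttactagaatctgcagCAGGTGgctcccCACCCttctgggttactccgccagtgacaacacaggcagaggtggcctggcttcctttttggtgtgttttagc
Ccr4 (chr9:114496545-114496794, GRCm38.p6, minus strand): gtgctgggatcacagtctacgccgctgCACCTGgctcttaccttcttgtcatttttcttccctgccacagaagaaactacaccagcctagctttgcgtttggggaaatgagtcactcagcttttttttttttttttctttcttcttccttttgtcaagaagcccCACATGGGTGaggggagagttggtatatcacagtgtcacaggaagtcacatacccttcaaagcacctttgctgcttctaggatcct
CACCC matched once in each of the 3 windows, at a motif held by 52.0% of 32851 RefSeq promoter windows. CANNTG matched 2 times in Ccr9, 2 times in Ccr4 and 0 times in Cxcr4, against 66.2% of all windows with at least 1 match, and in Ccr4 an E box and a CACCC match overlap. The EGR core GCGNGGGCG had 1 match in the full Cxcr4 window and none in those of Ccr9 and Ccr4, against 4.70% of all windows, and the RUNX core TGTGGT had none in any of the 3, against 14.1%. These matches describe letters only.

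Stages were set on surface protein, after 12258 cells had been left out, which were those of the named RNA classes outside the main path and the 51 cells of an unnamed cluster low in Cd3 RNA: DP1 (CD69-CD127-), DP2 (CD69+CD127-), CD4+CD8lo (CD69+), then CD4 semimature (CD4 SM, CD69+) and CD4 mature (CD69-) in the CD4 branch, and DP3 (CD69+CD127+), CD8 semimature (CD8 SM, CD69+) and CD8 mature (CD69-) in the CD8 branch. Thresholds were placed on the antibody distributions after these had been seen. The gates held 47577 cells, and a mouse entered a gate with at least 10 cells. DP3 was thin, with 469 cells over 9 mice, and the steps to and from DP3 used wild-type and CD8-fated mice only.

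**Figure D1:**
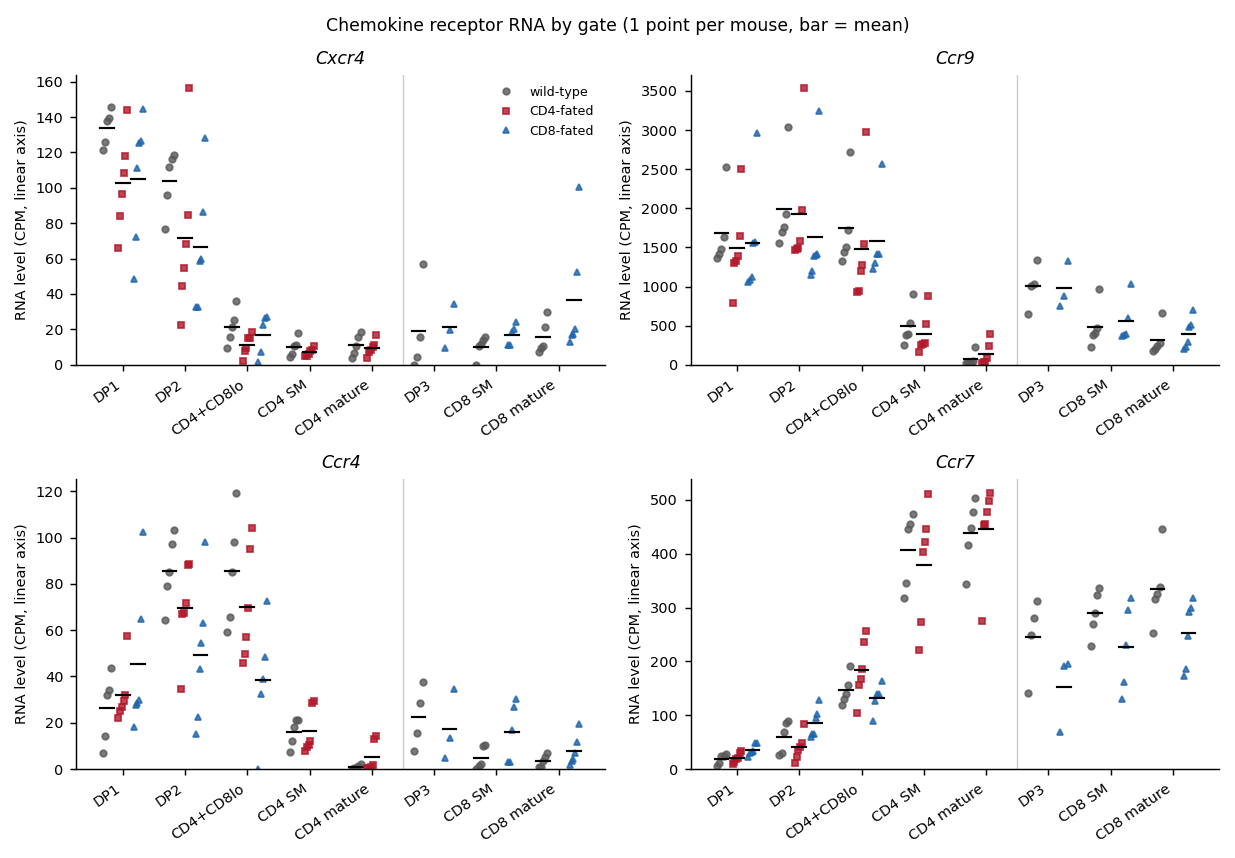
RNA level of each receptor (CPM of the UMIs summed over a mouse's cells in a gate, linear axes) by gate, with 1 point per mouse and the mean as a bar, for wild-type (circles), CD4-fated (squares) and CD8-fated (triangles) mice, the fated mice in the branch of their own lineage only. Cxcr4 is highest in DP1 (wild-type mean 134 CPM), Ccr4 in DP2 and CD4+CD8lo (85.8 and 85.5 CPM), Ccr9 from DP1 to CD4+CD8lo, and Ccr7 in the CD4 SM and CD4 mature gates (408 and 438 CPM).

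Cxcr4 RNA was a DP1 transcript that fell at each of the following steps up to CD4 SM. In the 5 wild-type mice DP1 held 121, 139, 138, 126 and 146 CPM. In the CD4+CD8lo gate the same mice held 21.1, 25.3, 9.54, 15.8 and 35.8 CPM, and in the CD4 mature gate 3.93, 15.6, 10.6, 6.86 and 18.5 CPM. Every wild-type DP1 value lay above every wild-type value of the later gates. Over all 17 mice DP1 ran from 48.5 through a median of 121 to 146 CPM and DP2 from 22.5 through 76.5 to 156 CPM, so that the gates overlapped between mice, yet Cxcr4 was lower in DP2 in 15 of 17 mice. The fall from DP1 to DP2 was -0.59 on the log2 scale (SE 0.0971, edgeR adjusted p = 6.48e-06), where 33.7% of 7582 genes passed an adjusted p of 0.05. From DP2 to CD4+CD8lo it fell in 16 of 16 mice by 1.91 on the log2 scale (SE 0.143, edgeR adjusted p = 1.99e-13), where 19.0% of 6508 genes passed. This was the steepest step of Cxcr4 among those tested.

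In the CD4 branch Cxcr4 fell by a further 0.96 from CD4+CD8lo to CD4 SM (SE 0.184, edgeR adjusted p = 0.000124; 8 of 11 mice; 35.3% of genes passed). It then rose from CD4 SM to CD4 mature by 0.52 (SE 0.160, edgeR adjusted p = 0.0144, 9 of 11 mice, 27.7% of genes passed). Medians went from 6.81 to 9.22 CPM in CD4-fated and from 10.49 to 10.55 CPM in wild-type mice. Those levels were small, and without AND replicate 1 the adjusted p of this rise was 0.0633. In the CD8 branch the step to DP3 gave -0.67 with a 95% interval of -1.20 to -0.13 and did not pass (edgeR adjusted p = 0.129; 8.79% of genes passed), Cxcr4 fell under the low-count filter from DP3 to CD8 SM, and CD8 SM to CD8 mature gave 0.32 with an interval of -0.02 to 0.66 (edgeR adjusted p = 0.270; 12% of genes passed).

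Ccr9 RNA stayed high through DP1, DP2 and CD4+CD8lo and fell in both branches afterwards. The wild-type values in DP1 were 1418, 1627, 1474, 1367 and 2523 CPM, and in CD4+CD8lo 1332, 1440, 1510, 1724 and 2715 CPM, so the DP1 and CD4+CD8lo values overlapped throughout. The changes between the first 3 gates were small: 0.20 from DP1 to DP2 (SE 0.0562, edgeR adjusted p = 0.00467; 13 of 17 mice) and -0.14 from DP2 to CD4+CD8lo (SE 0.0508, edgeR adjusted p = 0.0482; 13 of 16 mice). The rise was 0.03 with raised gate thresholds (edgeR adjusted p = 0.845) and 0.0245 with cells of unnamed clusters left out (edgeR adjusted p = 0.691), and passed in neither. The fall lost its call when any 1 of 9 mice was left out, namely AND replicate 1 or 2, MHCI-/- replicate 1 or 2, OT-I replicate 2, OT-II replicate 1 or WT replicate 1, 3 or 5, with changes of -0.15 to -0.12 and edgeR adjusted p of 0.0501 to 0.114.

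From CD4+CD8lo to CD4 SM, Ccr9 fell in 11 of 11 mice by 1.78 on the log2 scale (SE 0.0718, edgeR adjusted p = 2.58e-17), and from CD4 SM to CD4 mature in 11 of 11 mice by 2.32 (SE 0.169, edgeR adjusted p = 2.24e-11). Wild-type CD4 SM cells held 374, 399, 251, 539 and 910 CPM and CD4 mature cells 31.98, 39.5, 28.8, 53.0 and 224 CPM, with no overlap between the gates. The high value in each gate was that of WT replicate 5, whose CD4 mature cells also held Rag1 at 248 CPM and Cd8b1 at 244 CPM, against at most 16.2 and 54.7 CPM in the other 4 wild-type mice. The CD8 mature cells of WT replicate 5 held Rag1 at 268 CPM as well, and Cd4 at 42.6 CPM. S1pr1 and Klf2, which mark mature cells, were at 750 and 291 CPM in its CD4 mature cells. The other 4 wild-type mice held 296 to 369 and 849 to 979 CPM there. Rag1 marks DP cells and Cd8b1 DP and CD8 cells. The part of such cells, or of their free RNA, in the Ccr9 value of WT replicate 5 was not tested.

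In the CD8 branch the fall of Ccr9 was shallower and came in 3 steps. It fell by 0.71 from CD4+CD8lo to DP3 (SE 0.102, edgeR adjusted p = 7.57e-07; 6 of 6 mice), by 0.98 from DP3 to CD8 SM (SE 0.0991, edgeR adjusted p = 2.91e-10; 7 of 7 mice; 17.5% of 4298 genes passed) and by 0.59 from CD8 SM to CD8 mature (SE 0.0449, edgeR adjusted p = 1.25e-16; 10 of 10 mice). Wild-type CD8 mature cells kept 203, 240, 181, 283 and 656 CPM, above the same mouse's CD4 mature cells in every case. With cells of unnamed clusters left out, the first and the middle of these falls lost their calls (edgeR adjusted p = 0.984 and 0.150), with changes of -0.32 and -1.02.

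Ccr4 RNA was transient. Wild-type DP1 cells held 43.5, 32.1, 34.2, 6.73 and 14.4 CPM, DP2 cells 103, 64.2, 79.0, 85 and 97.2 CPM, and CD4 mature cells 2.24, 0.434, 1.44, 0.624 and 0 CPM. Every wild-type DP2 value lay above every DP1 value, and every CD4 mature value lay below them all. The rise from DP1 to DP2 was 1.24 (SE 0.188, edgeR adjusted p = 1.40e-06) and was seen in 15 of 17 mice, the exceptions being F5 replicate 1 (27.6 against 15.1 CPM) and OT-I replicate 2 (102 against 43.3 CPM). From DP2 to CD4+CD8lo no change passed, at -0.15 with a 95% interval of -0.34 to 0.05 (edgeR adjusted p = 0.351).

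After CD4+CD8lo, Ccr4 fell in all 11 mice of the CD4 branch by 2.23 to CD4 SM (SE 0.115, edgeR adjusted p = 3.25e-15) and again in all 11 by 2.55 to CD4 mature (SE 0.275, edgeR adjusted p = 3.26e-08). Toward DP3 it fell by 1.70 in 6 of 6 mice (SE 0.240, edgeR adjusted p = 4.67e-07). That call was lost with cells of unnamed clusters left out, where the change was -0.44 (edgeR adjusted p = 0.984). Beyond DP3 Ccr4 did not pass the low-count filter. Wild-type CD8 SM cells held 0 to 10.4 CPM and CD8 mature cells 0.881 to 7.11 CPM. Among wild-type DP1 cells the 3 sorted mice held more Ccr4 than the 2 unsorted mice, without overlap. The sort for CD5+TCRB+ cells and the experiment moved together here and cannot be told apart.

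Ccr7 RNA rose at every step in both branches. Wild-type DP1 cells held 11.97, 28.8, 23.5, 5.46 and 24.6 CPM, CD4+CD8lo cells 140, 130, 191, 120 and 157 CPM, and CD4 mature cells 503, 415, 448, 344 and 478 CPM. These 3 gates did not overlap. The rise was 1.54 from DP1 to DP2 (SE 0.113, edgeR adjusted p = 1.74e-13; 16 of 17 mice), 1.21 from DP2 to CD4+CD8lo (SE 0.131, edgeR adjusted p = 2.54e-09; 15 of 16 mice) and 1.45 from CD4+CD8lo to CD4 SM (SE 0.0681, edgeR adjusted p = 4.24e-16; 11 of 11 mice). The last CD4 step was small at 0.28 (SE 0.0427, edgeR adjusted p = 1.08e-05), yet it was upward in 11 of 11 mice.

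On the way to CD8 cells Ccr7 rose by 0.68 from CD4+CD8lo to DP3 (SE 0.114, edgeR adjusted p = 2.11e-05; 5 of 6 mice) and by 0.70 from DP3 to CD8 SM (SE 0.104, edgeR adjusted p = 1.48e-06; 6 of 7 mice). With gate thresholds lowered the first of these was 0.30 and did not pass (edgeR adjusted p = 0.0536). F5 replicate 2 held 68.8 CPM in DP3, below the other CD8-fated mice at 191 and 196 CPM. With cells of unnamed clusters left out, the step from DP3 to CD8 SM kept a change of 0.70 but did not pass (edgeR adjusted p = 0.4305), and that from CD8 SM to CD8 mature was 0.0120 (edgeR adjusted p = 0.936). From CD8 SM to CD8 mature Ccr7 rose by 0.17 (SE 0.0507, edgeR adjusted p = 0.0132; 8 of 10 mice). This last call was lost without the 3 libraries that stood apart (0.12, edgeR adjusted p = 0.140), without OT-I replicate 2 (0.15, edgeR adjusted p = 0.0529), without WT replicate 2 (0.15, edgeR adjusted p = 0.0539) and with library size in place of TMM scaling (0.10, edgeR adjusted p = 0.191).

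**Figure D2:**
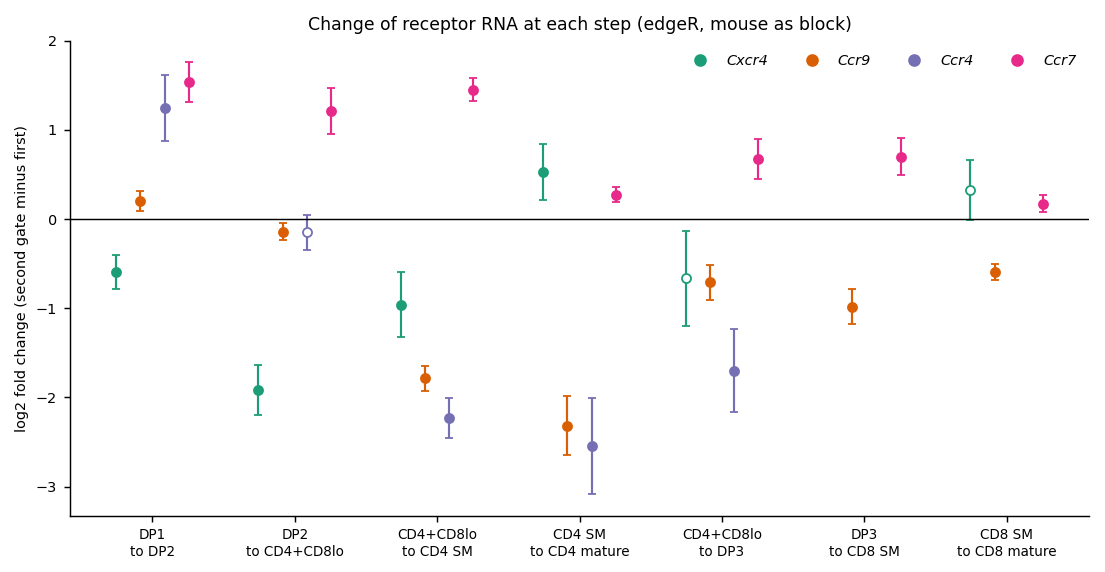
Log2 fold change of each receptor's RNA at each step, second gate minus first, from edgeR with the mouse as a block; bars are 95% intervals, and filled points passed an adjusted p of 0.05. Ccr7 lies above 0 at all 7 steps, Ccr9 falls at every step after CD4+CD8lo, Ccr4 rises to DP2 and falls after CD4+CD8lo, and the largest fall of Cxcr4 is that to CD4+CD8lo (-1.91); missing points were below the low-count filter.

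The antibody panel held CXCR4 (CD184) and CCR7 (CD197), and neither was used in the gates. Among these, CXCR4 antibody fell with its RNA from DP2 to CD4+CD8lo, by 0.26 on the log2 scale (SE 0.0403, edgeR adjusted p = 1.97e-05; 15 of 16 mice), where 24.3% of the 111 antibodies passed. Wild-type DP2 cells held a mean of 11.8 ± 4.33 CXCR4 antibody UMIs per 10000 (SD, n = 5) and CD4+CD8lo cells 10.1 ± 5.997. WT replicate 1 was the exception to the fall and the highest wild-type mouse in the later gates, at 20.7 per 10000 in CD4+CD8lo against 6.34 to 8.82 in the other 4. CXCR4 antibody passed in none of the other 6 steps. From DP1 to DP2 the change was -0.08 (SE 0.0413, edgeR adjusted p = 0.174; 13 of 17 mice lower; 34.2% of antibodies passed), and it passed without F5 replicate 1, OT-II replicate 1 or WT replicate 1, with changes of -0.12 each (edgeR adjusted p = 0.0278, 0.0474 and 0.0405). Without AND replicate 2 it was -0.05 (edgeR adjusted p = 0.709). From CD8 SM to CD8 mature it was 0.15 (edgeR adjusted p = 0.121; 29.7% of antibodies passed) and passed without OT-I replicate 1 (0.16, edgeR adjusted p = 0.0433). It was 0.06 without WT replicate 5, and the adjusted p reached 0.671 as single mice were left out.

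CCR7 antibody passed at none of the 7 steps. It averaged 10.6 ± 0.536 UMIs per 10000 in wild-type DP1 cells and 9.86 ± 1.02 in CD4 mature cells (SD, n = 5), while Ccr7 RNA in the same mice rose from a mean of 18.9 to 438 CPM. From CD4+CD8lo to CD4 SM, where Ccr7 RNA rose by 1.45, the antibody change was 0.06 with an interval of -0.02 to 0.13 (edgeR adjusted p = 0.299; 30.6% of antibodies passed). The intervals lay within -0.18 to 0.18 on the log2 scale at all 7 steps. Without WT replicate 5 the step from CD8 SM to CD8 mature passed as a fall of 0.17 on the log2 scale (edgeR adjusted p = 0.0330). AND replicate 2 held 32.7 to 37.9 per 10000 from DP1 to CD4 mature, against 5.08 to 15.2 in the other CD4-fated mice, and this mouse also had the fewest antibody UMIs, with a median of 1099 per cell. Neither antibody passed between CD4-fated and CD8-fated mice at a matched stage. In DP1, DP2 and CD4+CD8lo edgeR called 0 of 111 antibodies (6, 17 and 8 at an unadjusted p under 0.05). At the mature gates CXCR4 antibody gave -0.27 with an interval of -0.66 to 0.12 (edgeR adjusted p = 0.552; 9.01% of antibodies passed) and CCR7 antibody 0.21 with an interval of -0.20 to 0.63 (edgeR adjusted p = 0.641). Within wild-type mice CD4 mature minus CD8 mature was -0.02 for CXCR4 antibody (interval -0.15 to 0.11, edgeR adjusted p = 0.902) and -0.05 for CCR7 antibody (interval -0.18 to 0.07, edgeR adjusted p = 0.633), where 21.6% of antibodies passed. How well either antibody reports the protein on these cells was not tested.

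**Figure D3:**
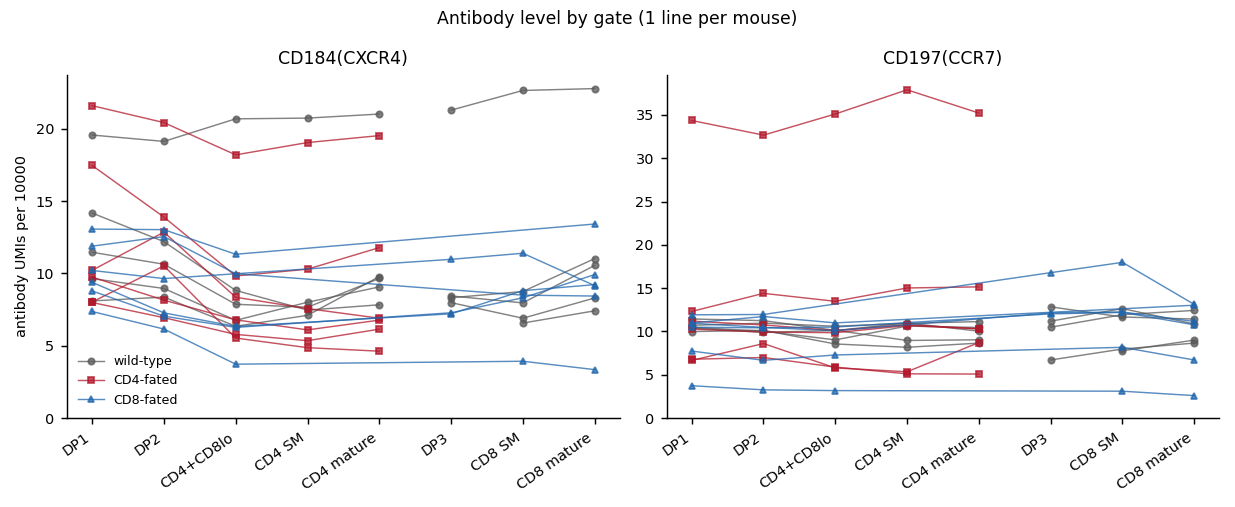
Antibody UMIs per 10000 antibody UMIs for CD184(CXCR4) and CD197(CCR7) by gate, on linear axes, with 1 line per mouse and branch for wild-type (circles), CD4-fated (squares) and CD8-fated (triangles) mice. CXCR4 antibody falls toward CD4+CD8lo in 15 of 16 mice, the intervals of the CCR7 antibody changes all lie within -0.18 to 0.18 log2, and WT replicate 1 (CXCR4) and AND replicate 2 (both antibodies) run above the rest.

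CD4-fated and CD8-fated mice were next compared at matched stages, with CD4-fated minus CD8-fated as the direction and the family of genotypes (AND with F5, OT-II with OT-I, MHCI-/- with MHCII-/-) as a covariate. In DP1 no gene of 8753 passed in edgeR (0.0%; 207 were under an unadjusted p of 0.05, and DESeq2 called 3), and none of the 4 receptors did. Ccr7 was nearest, at 8.73 to 33.2 CPM (median 20.3) in CD4-fated and 22.3 to 49.0 CPM (median 32.8) in CD8-fated mice, with a difference of -0.80 and an interval of -1.33 to -0.28.

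In DP2, 39 of 4925 genes passed (0.792%; 68 with the replicate number as a block), and Ccr7 was among them. CD4-fated DP2 cells held 11.2 to 83.6 CPM (median 38.1) and CD8-fated cells 60.4 to 128 CPM (median 80.3), with overlap from AND replicate 1 alone. The difference was -1.06 (SE 0.218, edgeR adjusted p = 0.0188), so Ccr7 was lower in CD4-fated than in CD8-fated DP2 cells. Klf2, which rises as thymocytes mature, was also lower in CD4-fated DP2 cells (46.3 against 152.7 CPM, a difference of -1.32, edgeR adjusted p = 0.0454), and its part in the Ccr7 difference was not tested. The call was lost without any 1 of the 4 MHC-deficient mice, MHCI-/- replicate 1 and 2 (-1.08 and -0.92, edgeR adjusted p = 0.0828 and 0.233) and MHCII-/- replicate 1 and 2 (-1.03 and -0.98, edgeR adjusted p = 0.159 and 0.2157), and the direction turned to 0.32 (edgeR adjusted p = 0.773) with cells of unnamed clusters left out.

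The Ccr4 difference had the opposite sign. In DP2 it held 34.4 to 88.6 CPM (median 69.7) in CD4-fated and 15.1 to 98.0 CPM (median 49.0) in CD8-fated mice, with a difference of 0.56 and an interval of 0.20 to 0.92 (edgeR adjusted p = 0.185), which passed with raised gate thresholds (0.86, edgeR adjusted p = 0.0194). In CD4+CD8lo it held 46.0, 49.8, 56.9, 69.4, 95.1 and 104 CPM in the CD4-fated mice and 0, 32.3, 38.7, 48.5 and 72.7 CPM in the CD8-fated mice with enough cells, the value of 0 coming from the 11 cells of F5 replicate 1. The difference of 0.89 (SE 0.2503) did not pass (edgeR adjusted p = 0.149; 0.742% of 7547 genes passed, which is 56 genes, and 199 passed with the replicate number as a block). It passed with the replicate number as a block (0.91, edgeR adjusted p = 0.00487), a fit that left out AND replicate 2, whose F5 partner had 8 cells. Without AND replicate 2 and with no block it did not pass (0.89, edgeR adjusted p = 0.235). It also passed with no filter on low counts (0.87, edgeR adjusted p = 0.00661), without the 3 libraries that stood apart (1.03, edgeR adjusted p = 0.00141), without OT-I replicate 2 alone (1.06, edgeR adjusted p = 0.00486) and with raised gate thresholds (1.04, edgeR adjusted p = 0.005538). Over the alternatives that left out 1 mouse each, its adjusted p ran from 0.00486 to 0.816. Ccr9 and Cxcr4 passed in none of the 3 early gates, and Ccr7 passed in CD4+CD8lo only with cells of unnamed clusters left out, as higher in CD4-fated mice (1.43, edgeR adjusted p = 0.00058).

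At the end points, CD4 mature cells of CD4-fated mice were set against CD8 mature cells of CD8-fated mice. Ccr7 was higher and Ccr9 and Cxcr4 were lower in the CD4 cells, in a comparison where 9.25% of 8609 genes passed (796, and 1311 with the replicate number as a block). Ccr7 held 514 and 478 CPM in AND, 456 and 498 in MHCI-/- and 275 and 453 in OT-II mice, against 248 and 186 in F5, 318 and 291 in MHCII-/- and 172 and 299.6 CPM in OT-I mice. Only OT-II replicate 1 fell into the range of the CD8-fated mice. The difference was 0.87 (SE 0.194, edgeR adjusted p = 0.0117).

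Ccr9 held 36.7 and 84.0 CPM in AND, 29.9 and 25.9 in MHCI-/- and 246 and 394 in OT-II mice, against 503 and 487 in F5, 201.1 and 222.5 in MHCII-/- and 288 and 696 CPM in OT-I mice. Both OT-II mice lay within the range of the CD8-fated mice, and the other 4 CD4-fated mice lay below it. The difference was -2.15 (SE 0.403, edgeR adjusted p = 0.00373). Without the family covariate it was -1.55 and did not pass (edgeR adjusted p = 0.184). In OT-II mice the CD4 mature cells also held Rag1 at 8.05 and 46.8 CPM, against 4.57 and 1.59 CPM in MHCI-/- mice. S1pr1 and Klf2, which mark mature cells, did not separate the genotypes. S1pr1 was at 237 and 472 CPM in OT-II against 328 and 318 CPM in MHCI-/- mice, and Klf2 at 854 and 367 against 754 and 968 CPM. The part of less mature cells, or of free RNA from other cells, in the OT-II Ccr9 level was not tested.

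Cxcr4 held 16.7 and 9.98 CPM in AND, 7.07 and 8.47 in MHCI-/- and 10.9 and 3.75 in OT-II mice, against 101 and 52.6 in F5, 13.1 and 17.2 in MHCII-/- and 16.8 and 20.01 CPM in OT-I mice. Of the CD4-fated mice, 5 of 6 lay below every CD8-fated mouse, and both F5 mice stood far above the rest. The difference was -1.57 (SE 0.271, edgeR adjusted p = 0.00213). Ccr4 was under the low-count filter. In the mature gate of their own lineage the 4 OT mice held 11.7 to 19.5 CPM of Ccr4, and the mature gates of all other mice held 0 to 7.11 CPM, the unsorted wild-type mice of the same experiment among them. All 3 calls held without the 3 libraries that stood apart.

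**Figure D4:**
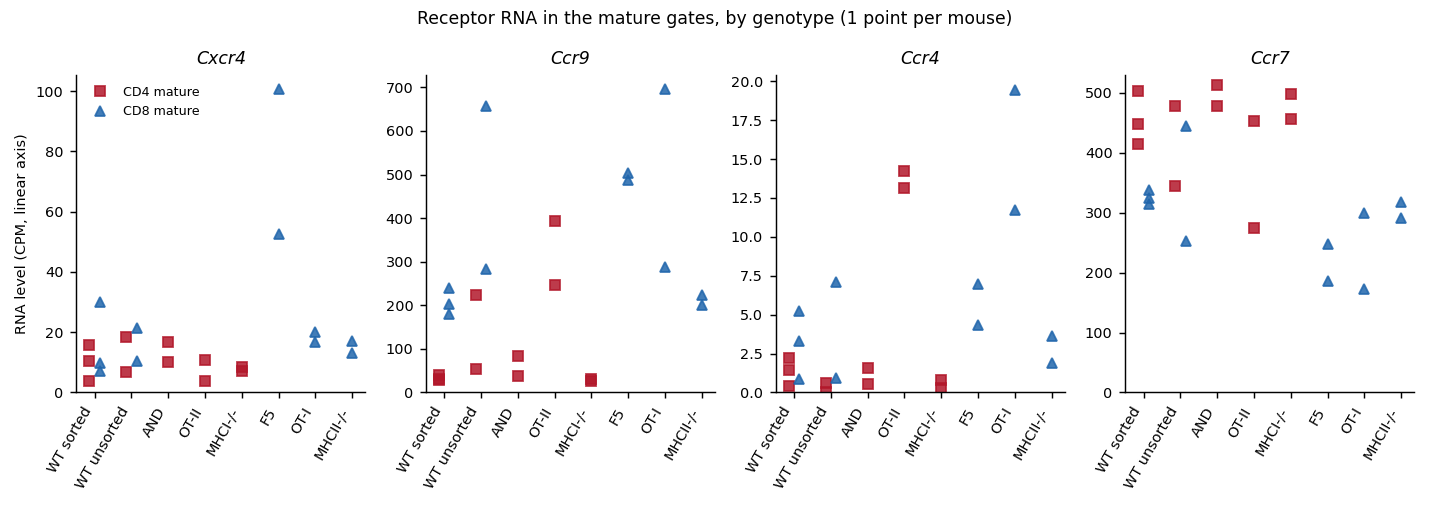
RNA level of each receptor (CPM, linear axes) in CD4 mature (squares) and CD8 mature (triangles) cells, 1 point per mouse, by genotype; CD4-fated genotypes show CD4 mature and CD8-fated genotypes CD8 mature cells, and wild-type mice show both. Ccr9 in CD4 mature cells is at 25.9 to 84.0 CPM in AND and MHCI-/- mice and at 246 and 394 CPM in OT-II mice, and the F5 mice stand out for Cxcr4 (101 and 52.6 CPM).

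Within the families of genotypes the differences varied in size. For Ccr9 the difference was -2.89 between AND and F5 (SE 0.479, edgeR adjusted p = 0.00463; 2.52% of genes passed) and -2.94 between MHCI-/- and MHCII-/- (SE 0.486, edgeR adjusted p = 0.00545; 2.81% passed), but -0.61 between OT-II and OT-I (SE 0.445, edgeR adjusted p = 0.584; 2.14% passed). The test of the difference between families gave an adjusted p of 0.243 for Ccr9 in edgeR, where 0.488% of genes passed. With single mice left out the edgeR adjusted p ran from 0.03503 without OT-I replicate 2 to 0.551 without MHCI-/- replicate 2, and OT-I replicate 2 was the only mouse of the 12 without which it passed. It was 0.009355 without the 3 libraries that stood apart, 9.149e-07 with no filter on low counts and 0.02228 with DESeq2. For Cxcr4 the differences were -2.39 between AND and F5 (SE 0.3495, edgeR adjusted p = 0.00205), -0.98 in the MHC family (edgeR adjusted p = 0.226) and -1.05 in the OT family (edgeR adjusted p = 0.274). The test between families did not pass for Cxcr4 (edgeR adjusted p = 0.650) or for Ccr7, whose differences were 1.32, 0.63 and 0.65 in the same order. Each family had 2 mice a side.

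Within the 5 wild-type mice, where both lineages come from 1 thymus, CD4 mature cells again held more Ccr7 than CD8 mature cells and less Ccr9. Ccr7 was higher in CD4 mature cells in 5 of 5 mice, by 0.40 (SE 0.0582, edgeR adjusted p = 4.75e-08), where 22.6% of 7581 genes passed. CD8 mature cells held 338, 324, 315, 254 and 445 CPM of Ccr7. Ccr9 was lower in 5 of 5 mice by 2.33 on the log2 scale (SE 0.0965, edgeR adjusted p = 8.11e-34). Of the wild-type mice in the experiment of the OT mice, WT replicate 4 held 53.0 CPM of Ccr9 in CD4 mature and 283 CPM in CD8 mature cells, and WT replicate 5 held 224 and 656 CPM. Cxcr4 gave -0.57 with an interval of -1.06 to -0.09 and did not pass (edgeR adjusted p = 0.0857), with CD4 mature cells lower in 4 of 5 mice. Leaving out 1 mouse at a time moved it between -0.27 without WT replicate 2 (edgeR adjusted p = 0.665) and -0.75 without WT replicate 3, where it passed (edgeR adjusted p = 0.0491). It also passed with cells of unnamed clusters left out (-0.93, edgeR adjusted p = 0.00967).

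The share of cells with at least 1 UMI of a receptor was compared as well. Each cell was thinned to 2000 UMIs, and shares were compared between 6 and 6 mice by a two-sided exact permutation test over all splits, whose smallest p is 0.00216, with p-values adjusted over the 4 genes. The splits ran over single mice and took no account of genotype, family or experiment, unlike the edgeR fits with family as a covariate. Mice of the same genotype may not be independent, so these p-values may overstate a difference between lineages. No test with the genotype as the unit was made. Cells under 2000 UMIs were left out. Over all mice 4009 of 4133 CD4 mature and 2868 of 2894 CD8 mature cells remained, and in OT-II replicate 2 184 of 225. Ccr7 was found in 57.0% ± 7.28 of CD4 mature and 38.4% ± 8.00 of CD8 mature cells (SD, n = 6 each, exact permutation adjusted p = 0.00866). Ccr9 was found in 16.0% ± 12.5 against 48.9% ± 13.5 and Cxcr4 in 1.51% ± 0.933 against 7.01% ± 6.48 (exact permutation adjusted p = 0.00866 for each). Ccr4 was found in 0.828% ± 1.25 against 1.48% ± 1.40 (exact permutation adjusted p = 0.420). The Cxcr4 call was lost without AND replicate 2, MHCI-/- replicate 1 or OT-II replicate 2 (differences of -5.39, -5.31 and -5.42 percentage points, exact permutation adjusted p = 0.0548, 0.0577 and 0.0519). The CD8-fated mean rested in part on F5 replicate 1, at 19.1% of cells against 2.66% to 9.57% in the other 5 mice, and without it the difference was -3.08 points. Before thinning, over all mice, Ccr7 was seen in 81.0% of 4133 CD4 mature and 74.9% of 2894 CD8 mature cells, Ccr9 in 24.0% and 79.7%, Cxcr4 in 4.77% and 15.9% and Ccr4 in 1.67% and 4.28%, at median depths of 4875 and 6868 UMIs.

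As a floor for free RNA, erythrocyte-like cells, which should lack all 4 receptors but also held ligand UMIs of stromal cells (given below), had a median of 7520 UMIs. After thinning, Ccr4, Ccr7 and Cxcr4 were seen in 0 of 20 of them, which allows a share of up to 15%, and Ccr9 in 2 of 20 (10%). The Ccr9 shares of 4 CD4-fated mice, 5.53% and 14.8% in AND and 6.80% and 5.98% in MHCI-/- mice, cannot be told apart from a background set by so few cells. Of the Cxcr4 shares only that of F5 replicate 1, at 19.1%, and of the Ccr4 shares none lay above what so few cells allow. All 12 Ccr7 shares, at 28.7% or more, lay above it. In B-like cells, 82 after thinning, Ccr9 was seen in 9.76%, and in 506 DN-like cells Ccr7 in 2.17% and Ccr4 in 0.198%.

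Detection within a gate also varied from cell to cell. In CD4 SM cells thinned in the same way, Ccr7 was seen in a median of 48.5% of cells with a Ccr9 UMI and in 54.8% of cells without one, and it was lower in the Ccr9+ cells in 13 of 13 mice. Ccr4 was seen in 4.80% against 1.07% of the same cells and was higher with Ccr9 in 12 of 13 mice. In CD4 mature cells Ccr7 was lower with Ccr9 in 8 of 10 mice. In the CD8 branch the direction was the opposite in most mice, and Ccr7 was seen in more of the Ccr9+ cells in 3 of 4 mice for CD8 SM and in 7 of 10 for CD8 mature. The medians with and without Ccr9 were near each other in CD8 SM (40.3% and 39.7%). In CD8 mature cells they ran against the tally of mice (38.7% and 41.5%). These are descriptions over cells of a gate, which span a range of maturity.

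Some cells fell into the mature or semimature gates opposite to the fate of their mouse. In OT-I mice the CD4 mature gate held 76 and 56 cells, with Ccr9 at 775 and 1409 CPM, above the 25.9 to 394 CPM of the CD4-fated mice, and with Ccr7 at 169.8 and 329 CPM against 275 to 514. Ccr4 stood at 19.1 to 79.0 CPM in these cells, against 0.265 to 14.2 CPM in the CD4-fated mice. These cells also held the CD8 T cell gene Nkg7 at 97.7 and 39.5 CPM, against 0 to 17.5 CPM in CD4-fated mice, S1pr1 at 146.5 and 434.7 CPM against 237 to 472 CPM, and Klf2 at 467 and 191 CPM against 367 to 1255 CPM, and the part of other cells in these levels was not tested. CD4 SM cells of 4 CD8-fated mice held Ccr9 at 693 to 1431 CPM, from 114 and 145 OT-I and 21 and 28 MHCII-/- cells. The MHCII-/- mice were at 989 and 972 CPM. Wild-type CD4 SM cells held 251 to 910 CPM, so the ranges overlapped. The reverse case, CD8 mature cells in CD4-fated mice, rested on 18 cells of AND replicate 1 and 12 cells of OT-II replicate 1, with Ccr7 at 27.0 and 103 CPM. These cells also held less of S1pr1 and Klf2, which mark mature cells, and of Cd8b1 than the other CD8 mature gates. S1pr1 was at 30.8 and 70.9 CPM against 154 CPM or more, Klf2 at 239 and 260 CPM against 282 CPM or more and Cd8b1 at 381 and 599 CPM against 959 CPM or more. The part of other cells in the Ccr7 level was not tested. None of these was tested.

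Cells outside the gates were grouped by RNA clustering and named from marker genes, so their own marker genes are not results. Among these classes, gamma-delta T-like cells, with 1988 cells in 6 mice, none of them wild-type, held Ccr9 at 1122 to 4733 CPM (mean 2370 ± 1418), Ccr4 at 26.9 ± 3.76 CPM and Cxcr4 at 60.2 ± 10.7 CPM (SD, n = 6). Double-negative (DN)-like cells, which precede DP1, and cycling-like cells held Cxcr4 at 88.0 ± 11.8 CPM (n = 2) and 96.9 ± 26.9 CPM (n = 17) with little Ccr4 (1.66 and 4.06 CPM) and with Ccr9 at 275 and 301 CPM, below the DP1 mean of 1571 CPM. The cycling-like class is mixed, since a cluster of 544 of its cells had the CD8 T cell gene Nkg7 among its leading genes, and its Ccr7 level ran from 5.34 to 111.9 CPM between mice. Negative selection-like cells, which carry signs of strong TCR signals, held Ccr4 at 35 ± 21.1 CPM and Ccr7 at 64.3 ± 59.4 CPM (n = 11). Treg-like cells held Ccr7 at 314 ± 88.3 CPM, Ccr9 at 160 ± 97.6 CPM and Ccr4 at 7.15 ± 7.33 CPM (n = 11). NKT-like cells held Ccr7 at 38.3 ± 29.8, Ccr9 at 81.4 ± 77.8, Cxcr4 at 17.4 ± 12.1 and Ccr4 at 7.79 ± 8.55 CPM (n = 10). In B-like cells Ccr4 had 0 UMIs in 100 cells, which allows a share of up to 3.00% of cells with a Ccr4 UMI at this depth and does not bound the share that express it, beside Ccr7 at 69.6 ± 53.4 CPM and Cxcr4 at 86.8 ± 21.2 CPM (n = 3).

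**Figure D5:**
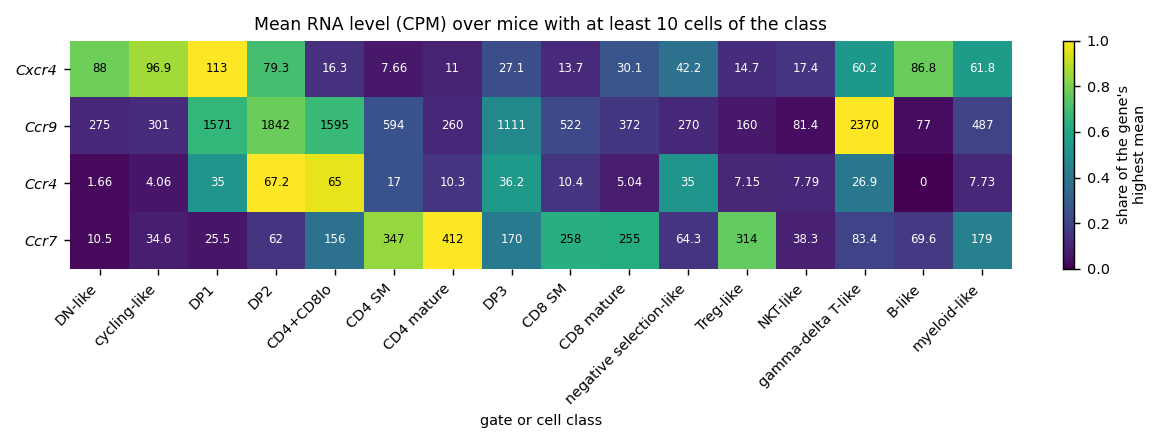
Mean RNA level (CPM, printed in each cell) of the 4 receptors in the gates and in the classes named from markers. Means are over mice of any fate with at least 10 cells of a class, so gates include mice of the opposite fate. Colour is the share of that gene's own highest mean. Ccr9 means are 2370 CPM in gamma-delta T-like cells (6 mice, none wild-type, 1122 to 4733 CPM) and 1842 CPM in DP2 (17 mice), and the highest means lie for Ccr4 in DP2 and CD4+CD8lo, for Cxcr4 in DP1, cycling-like and DN-like cells, and for Ccr7 in CD4 mature, CD4 SM and Treg-like cells.

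The ligands of these receptors are made largely by stromal and dendritic cells. In the cells kept here Ccl21b had 0 UMIs, Ccl19 4, Cxcl12 32 and Ccl21a 36 in all, too few to compare between classes. Most UMIs of the CCR4 ligands lay in the 531 myeloid-like cells, with 980 of 1095 for Ccl22 (380 CPM) and 541 of 590 for Ccl17 (209.7 CPM), and single cells gave much of both. This compares with at most 0.877 CPM of Ccl22 and 4.31 CPM of Ccl17 in the DN-like, cycling-like, gamma-delta T-like, Treg-like, NKT-like and negative selection-like classes. Within the myeloid-like cells, a cluster of 47 cells led by Cd74, Irf8 and Cst3 held Ccl22 at 1319 CPM and Ccl17 at 472 CPM, of which a single cell gave 454 of 726 Ccl22 UMIs and a single cell 259 of 260 Ccl17 UMIs. A cluster of 85 cells led by Ccl5 and Fscn1 held Ccl22 at 1346 CPM and was the highest of these clusters in Ccr7, at 1564 CPM. Ccl25, the CCR9 ligand, was seen at 12.9 to 24.98 CPM in those same 6 classes. It was near that level in the gates (19.1 to 26.4 CPM), in B-like cells (25.4 CPM) and in myeloid-like cells (21.7 CPM). In 28 erythrocyte-like cells it was at 187 CPM. These 28 cells also held 11 of the 36 Ccl21a UMIs, 10 of them in a single cell, and 7 of the 32 Cxcl12 UMIs. The part of free RNA in the Ccl25 levels was not tested. A cluster of 276 cells led by Apoe and C1q genes, counted as myeloid-like, held Ccr9 at 577 CPM and also T cell Cd3 genes at 2762 CPM, whose part in the Ccr9 level was not tested.

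Of 19 other chemokine receptors, few reached the tests. At most 1 was tested in any comparison. Cxcr6 was lower in CD4 mature than in CD8 mature cells, with a mean of 0.0762 CPM, from 1 UMI in all, in CD4-fated against 35.2 CPM in CD8-fated mice (edgeR adjusted p = 9.11e-09) and 1.07 against 37.1 CPM in wild-type mice (edgeR adjusted p = 3.66e-23). No fold is given against so few UMIs. It rose by 1.65 from CD8 SM to CD8 mature (edgeR adjusted p = 1.72e-14). Ccr8 fell by 1.09 from CD4 SM to CD4 mature (edgeR adjusted p = 2.13e-05), from a mean of 9.62 to 4.63 CPM. The other 17 receptors were below the filter in every comparison.

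Genes that act with the receptors in cell movement also changed along the gates. Of 18 listed trafficking genes, 17 of them measured, 15 were tested at the mature end points, where 3 were higher in CD4-fated cells: Gpr183, an oxysterol receptor (2.08, edgeR adjusted p = 7.87e-05), and Rgs10 and Rgs14, regulators of G protein signaling (0.71 and 0.67, edgeR adjusted p = 0.0231 and 0.00223), where 9.25% of all genes passed. Itgae, the integrin chain CD103, was lower (0.564 against 109.5 CPM, edgeR adjusted p = 8.38e-08), and 11 did not pass. The list's median difference was 0.09 beside -0.01 over all genes. In wild-type mice 8 were higher and 3 lower of 15, where 22.6% of all genes passed. From CD4 SM to CD4 mature 10 of 15 rose and 2 fell, where 27.7% of all genes passed, with S1pr1 and Klf2 among those that rose, a step at which Ccr7 rose and Ccr9 and Ccr4 fell.

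The 23 stage means of wild-type, CD4-fated and CD8-fated mice share mice and depth and include the gates opposite to the fate of a mouse. Across them Ccr4 and Ccr9 ran together (Pearson r = 0.84 of log2(CPM + 1)), and Ccr7 ran against Cxcr4 (r = -0.91) and Ccr9 (r = -0.69). Among 7640 genes, those most like Ccr4 were Armcx1 (r = 0.94), Tox, Rap2c, Egr1 and Lcp2 (r = 0.91 to 0.92), of which Egr1 is a target of TCR signals. Most like Ccr7 were Gpr18 (r = 0.96), Slfn1, Ccnd2, Isg15 and Ifi27l2a (r = 0.94 to 0.95). Most like Ccr9 were Slc9a9 (r = 0.93), H13, Tspan13, Ctnnbip1 and Lztfl1 (r = 0.92 each), and Lztfl1 is among the genes that overlap Ccr9 on the opposite strand. Most like Cxcr4 were Anxa2 (r = 0.94), Mpp1, Endou, Myb and Cmtm7 (r = 0.91 to 0.92). No test was made of these likenesses.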

How the data were processed

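The authors deposited raw counts, the UMIs of each gene or antibody per barcode and lane, with no normalization. Per the labels and the study's methods these came from Cell Ranger 3.1.0 on the mouse mm10 genome. Barcodes were kept with at least 200 genes, at most 15% mitochondrial UMIs and 1000 to 10000 antibody UMIs with at least 70 antibodies seen. Doublets (2798, 3.88%) were called in each lane by their share of simulated doublets among neighbors, at 0.8% per 1000 barcodes. RNA was clustered with leidenalg 0.10.2 (resolution 1), and clusters were named from marker lists; 25685 cells lay in unnamed clusters and could enter the gates, except the 51 cells of 1 such cluster. DN-like, cycling-like, gamma-delta T-like, NKT-like, Treg-like, negative selection-like, interferon-like, B-like, myeloid-like and erythrocyte-like cells were left out of the gates, as were clusters whose summed Cd3d, Cd3e and Cd3g CPM was under the median over clusters divided by 3. Of the remaining cells, 9421 fell in no gate. Gates used ln(1 + 4000 × antibody UMIs / all antibody UMIs of the cell) for CD4, CD8a, CD69, CD127 and TCRB.

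UMIs were summed per mouse and gate and tested in R 4.3.3 with the quasi-likelihood test of edgeR 4.0.16 (TMM scaling, filterByExpr, Benjamini-Hochberg over all genes or antibodies), with the mouse as block for steps and within wild-type mice, and the family of genotypes as covariate between lineages. The log2 fold changes are edgeR's, with standard errors taken as the fold change over the root of F. DESeq2 1.42.0, library-size scaling, other filters, thresholds and left-out mice were alternatives. Levels are CPM of summed UMIs. The test was run on simulated counts first. Lanes held 9893333 to 43303999 RNA UMIs, which limits gates of few cells most. P-values between lineages measure the spread between mice, and those with the mouse as block the spread of the change within mice. In edgeR this spread is estimated with information shared over genes, so very small p-values do not come from the mice of 1 gene alone. Floors cover counting error only. The 4 receptors, the gene lists and the tests were chosen with earlier results of these data known. Beside the receptors, other chemokine receptors and trafficking genes were named where they passed, ligands by level, and the 5 genes most alike by correlation.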

Additional observations from a re-analysis of the deposited data

Results flagged for a closer look

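Among 114 sets of 4 to 6 mice examined, 25 had a highest or lowest mouse whose gap to the next took up most of the set's range. Chance gives about 1 in 20 such sets. Mice recur across gates, so these are not separate findings. For Ccr9, WT replicate 5 was the high mouse among wild-type mice in DP1 (2523 CPM), DP2 (3043), CD4+CD8lo (2715), CD4 mature (224) and CD8 mature (656). OT-I replicate 2 was the high CD8-fated mouse for Ccr9 in DP1 (2957 CPM), DP2 (3246) and CD4+CD8lo (2567), and OT-II replicate 2 the high CD4-fated mouse in DP2 (3535 CPM) and CD4+CD8lo (2980). These are the 3 libraries with high Malat1 and Gm26526, whose part in the Ccr9 level was not tested.

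Ccr4 in DP1 was high in MHCI-/- replicate 2 at 57.6 CPM, against 21.9 to 32 CPM in the other CD4-fated mice. Ccr7 in CD4 mature cells was low in OT-II replicate 1 at 275 CPM, against 453 to 514. Cxcr4 in CD4 SM cells of CD8-fated mice was high in MHCII-/- replicate 2 at 17.3 CPM, against 0 to 2.87 CPM in the others. That value is 3 UMIs in 28 cells, too few to read a difference from.

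CXCR4 antibody was high in WT replicate 1 in CD4+CD8lo (20.7 UMIs per 10000), CD4 SM (20.7), CD4 mature (21.0), DP3 (21.3), CD8 SM (22.6) and CD8 mature (22.8), and in AND replicate 2 in CD4+CD8lo (18.2). CCR7 antibody was high in AND replicate 2 in DP1 (34.4 UMIs per 10000), DP2 (32.7), CD4+CD8lo (35.1), CD4 SM (37.9) and CD4 mature (35.2). AND replicate 2 had the fewest antibody UMIs per cell.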

How the results depend on the processing

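Of 438 values of the 4 receptors recomputed under settings other than leaving out 1 mouse, 408 kept their direction and side of the threshold, 19 lost and 10 gained a call, and 1 turned. That was Ccr7 in DP2 between lineages, -1.06 in the report and 0.32 with cells of unnamed clusters left out. Gates of few cells, DP3 above all, limit what can be called. The setting without WT replicate 5, OT-I replicate 2 and OT-II replicate 2 was chosen after seeing the data. The test between families could not be fitted with unnamed clusters left out. The causes of these changes were not tested.

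With cells of unnamed clusters left out, calls were lost for Ccr9 from DP1 to DP2 (0.0245), Ccr4 and Ccr9 from CD4+CD8lo to DP3 (-0.44 and -0.32), Ccr7 and Ccr9 from DP3 to CD8 SM (0.70 and -1.02) and Ccr7 from CD8 SM to CD8 mature (0.0120), and gained for Ccr7 between lineages in CD4+CD8lo (1.43) and Cxcr4 in wild-type mature cells (-0.93). With thresholds raised, Ccr9 lost its calls from DP1 to DP2 (0.0264) and DP2 to CD4+CD8lo (-0.0237), and Ccr4 gained calls between lineages in DP2 (0.86) and CD4+CD8lo (1.04). With thresholds lowered, calls were lost for Ccr7 in DP2 between lineages (-1.05), to DP3 (0.30) and to CD8 mature (0.14) and for Cxcr4 to CD4 mature (0.39). With called doublets kept, Ccr7 in DP2 (-0.88) and Ccr9 to CD4+CD8lo (-0.14) lost theirs. With no filter on low counts Ccr9 to CD4+CD8lo lost its call (-0.0932), and Ccr4 between lineages in CD4+CD8lo (0.87) and the family test of Ccr9 (edgeR adjusted p = 9.15e-07) gained one, the latter also with DESeq2 (adjusted p = 0.0223) and without the 3 libraries (edgeR adjusted p = 0.00936). Those 3 left out, Ccr4 in CD4+CD8lo gained a call (1.03) and Ccr7 to CD8 mature lost it (0.12), as with library size for TMM (0.10). Without the family covariate Ccr7 in DP2 (-1.08) and Ccr9 in the mature gates (-1.55) lost theirs.

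Genes called between lineages, 0, 39, 56 and 796 in DP1, DP2, CD4+CD8lo and mature gates, came to 3 in DP1 with DESeq2; to 68, 155, 187 and 1399 with no filter; to 89, 108 and 2211 in the latter 3 with unnamed clusters left out; to 5, 22 and 349 without the family covariate; and to 100, 295 and 1309 without the 3 libraries. In DP2 they were 99 with at least 30 cells, and 178 and 15 with thresholds raised and lowered. The family test called 88 with DESeq2, 328 with no filter and 137 without the 3 libraries, against 42, and DESeq2 called 763 against 1713 in wild-type mature cells. Steps moved to 602 and 1935 genes (DP2 to CD4+CD8lo, thresholds raised and lowered, against 1237), 4466 (CD4+CD8lo to CD4 SM, library size, against 2880), 279 and 46 (CD4+CD8lo to DP3, DESeq2 and unnamed clusters left out, against 546) and, from DP3 to CD8 SM against 754, 443 with DESeq2, 3 with unnamed clusters left out, 1211 with library size and 339 and 1436 with thresholds raised and lowered. Antibodies called moved to 1 in DP2 between lineages and 50 from DP2 to CD4+CD8lo with library size, to 41 and 38 from DP2 to CD4+CD8lo and on to DP3 with thresholds raised, and to 34 in the last without the 3 libraries.

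With 1 mouse left out at a time, the values that changed gave these ranges. Genes called between lineages ran over 0 to 1 in DP1, 10 to 60 in DP2, 20 to 146 in CD4+CD8lo and 474 to 975 in the mature gates, in the family test over 14 to 59, to DP3 over 223 to 723 and from DP3 to CD8 SM over 382 to 818. The counts fell without any MHC-deficient mouse in DP2 (10 to 13) and CD4+CD8lo (20 to 25, and 36 without AND replicate 1), and without MHCI-/- replicate 1 or 2 or MHCII-/- replicate 2 in the mature gates (521, 516 and 474), and rose without OT-I replicate 2 in DP2 (60) and CD4+CD8lo (146), without OT-II replicate 2 in DP2 (59) and without OT-I replicate 1 in CD4+CD8lo (130). In the family test they fell to 14 to 26 without AND replicate 1 or 2, any MHC-deficient mouse or OT-II replicate 1, to DP3 to 223 and 236 without MHCII-/- replicate 1 and 2, and to CD8 SM to 382 without MHCII-/- replicate 2. Antibodies called ran over 0 to 1 between lineages in DP2 and in CD4+CD8lo, and over 8 to 34 to DP3. Changes in RNA ran over -1.25 to -0.92 (Ccr7 in DP2), 0.59 to 1.13 (Ccr4 in CD4+CD8lo), -0.75 to -0.27 (Cxcr4 in wild-type mature cells), -0.16 to -0.12 (Ccr9, DP2 to CD4+CD8lo), 0.39 to 0.58 (Cxcr4 to CD4 mature) and 0.14 to 0.25 (Ccr7 to CD8 mature), the adjusted p between families for Ccr9 over 0.03503 to 0.551, and the share of cells with Cxcr4 over -6.37 to -3.08 percentage points. CXCR4 antibody ran over -0.12 to -0.0454 from DP1 to DP2 and 0.0557 to 0.18 to CD8 mature, and CCR7 antibody over -0.17 to -0.0402 in the latter. In 496 of 515 such values of the receptors' RNA, 255 of 260 of their antibodies and 45 of 48 of detection, the direction and the side of the threshold stayed.

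CD4-fated and CD8-fated mice of a family share replicate numbers. In the AND/F5 family a number also stands for an experiment, with correlations of the deviations of same-numbered mice of -0.0498 to 0.143. They were 0.343 to 0.817 in the OT family, and -0.244 to 0.00234 in the MHC-deficient family, where the mice share only a number. With the replicate number as a block the genes called were 0, 68, 199 and 1311, Ccr4 in CD4+CD8lo gained a call (0.91), and no other receptor's call changed. In CD4+CD8lo this fit left out the unpaired AND replicate 2, without which the fit with no block called 43 genes.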
